A study of Mus musculus with 8 samples.

Results

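The tubulin genes described here are 10 genes of the alpha- and beta-tubulin families, 4 alpha genes (Tuba1a, Tuba1b, Tuba1c and Tuba4a) and 6 beta genes (Tubb2a, Tubb2b, Tubb3, Tubb4b, Tubb5 and Tubb6). They were chosen by gene symbol from a table of 35275 genes, and each of the 10 was listed once. The table holds RNA levels in the fiber cells (FC) of the ocular lens of C57BL/6 mice (C57BL/6J in the study's methods), the elongated cells that fill the lens. CS-exposed mice were born in a whole-body cigarette smoke (CS) chamber and were exposed for 5 hours/day, 5 days/week over 3.5 months, while untreated control (Ct) mice of the same age were kept in the animal facility. Each group had 4 libraries, and each library came from lens FC pooled from the right eyes of 4 mice. By the study's methods, 2 pools of a group were male and 2 female, but the labels do not say which, and a pool hides the spread between its mice. The comparison asks whether 3.5 months of CS exposure changed the tubulin RNA of lens FC.

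Alpha- and beta-tubulin join into the dimer from which microtubules are built, and mammals carry several genes for each, which encode closely related proteins. The proteins differ most in their acidic tails, which face outwards from the microtubule and are the place where enzymes add glutamate chains or, on alpha-tubulin, remove and restore a terminal tyrosine. In the lens, microtubules run along the length of the elongating fiber cell and serve as tracks for the transport of vesicles and membrane proteins. The amount of free tubulin is known to feed back on tubulin RNA: when unpolymerized dimers accumulate, ribosome-bound tubulin mRNA is recognized through the first residues of the growing chain and degraded.

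The last 60 coding bases of 4 of the genes, stop codon included, are shown because this end encodes the acidic tail in which the isotypes differ and because it shows how alike some gene pairs are. Capitals mark in-frame GAA and GAG codons, which encode glutamate, and all runs are written 5′ to 3′ along the coding strand from GENCODE M21 transcripts on GRCm38.
Tuba4a (chr1:75215622-75215681, minus strand): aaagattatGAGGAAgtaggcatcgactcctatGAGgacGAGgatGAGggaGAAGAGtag
Tubb2a (chr13:34074468-34074527, minus strand): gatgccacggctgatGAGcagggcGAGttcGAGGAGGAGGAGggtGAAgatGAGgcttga
Tubb2b (chr13:34127471-34127530, minus strand): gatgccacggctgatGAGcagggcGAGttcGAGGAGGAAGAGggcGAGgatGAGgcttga
Tubb5 (chr17:35834982-35835041, minus strand): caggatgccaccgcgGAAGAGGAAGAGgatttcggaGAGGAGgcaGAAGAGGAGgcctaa

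In this stretch Tubb2a and Tubb2b differed in 3 of 60 bases. Tuba4a held 7 glutamate codons there, Tubb2a and Tubb2b 8 each and Tubb5 9, and of the genes not printed Tubb4b held 10 and Tuba1c 6. The last codon of Tuba4a before its stop is GAG and not a codon for tyrosine. At the other end, Tuba1a, Tuba1b and Tuba1c open with the same 12 bases, ATGcgtgagtgc, and Tubb5 opens with ATGagggaaatc, where capitals mark the start codon; these opening codons encode the residues read in the feedback on tubulin RNA.

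The likeness of the genes bears on how well their reads can be told apart. Over the whole coding sequence the 4 alpha genes were 84.7 to 98.3% identical to each other, the 6 beta genes 80.3 to 96.5%, and alpha genes to beta genes 56.0 to 58.5%. Of all windows of 150 bases in the annotated transcript, the read length of the libraries, 54.7% of Tuba1a, 57.9% of Tuba1b and 46.7% of Tuba1c also occurred in another annotated gene. With another of the 10 tubulin genes the share was 29.4% in Tuba1a, 43.4% in Tuba1b and 46.7% in Tuba1c, and with Gm49450, a protein-coding gene annotated over Tuba1a and Tuba1b on the same strand, it was 26.1, 27.0 and 19.2%. Gm49450 was not found by symbol in the table of FPKM, so its part in the counting is unknown. The share was 27.9% in Tubb2a and 20.1% in Tubb2b, which share them with each other, and 16.8% in Tubb4b, which shares them with its pseudogene. It was 0.0% in Tubb3, Tubb5 and Tubb6. How reads that map to several genes were treated is not given in the sources used here. The levels of Tuba1a, Tuba1b, Tuba1c, Tubb2a and Tubb2b, and the split among them, are therefore uncertain. Tuba4a shared 45.7% of its windows with Stk16, which overlaps it on the opposite strand, and reads of the overlap cannot be told apart without strand. The level of Stk16 in the 8 libraries lay between 5.75 and 8.69 FPKM.

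FPKM divide the fragments of a gene by its length and by the mapped reads of its library, so that levels can be compared between genes. For genes with shared windows that comparison is less certain. The steps of the FPKM values gave an estimated depth of 18100000 to 23200000 fragments per library. The libraries carried the markers of lens FC, with Cryaa, an alpha-crystallin, the highest at 90037 to 101638 FPKM. The summed level of 6 lens epithelium markers was 40.4 to 96.8 FPKM in untreated Ct and 30.5 to 56.9 FPKM in CS-exposed libraries, with Foxe3, a transcription factor, the highest and Pdgfra, a growth factor receptor, the lowest. The summed level of 10 rod photoreceptor markers did not overlap between groups, at 7.08 to 24.8 FPKM in untreated Ct and 27.8 to 90.9 FPKM in CS-exposed libraries. For 7 of the 10 rod markers the groups did not overlap, beside 3.08% of all genes tested. They ranged from Cnga1, a channel subunit, at 0.0 to 0.729 FPKM up to Gnat1, the rod transducin, at 1.80 to 36.0 FPKM. The part of these other cells in the tubulin values was not tested, except that the values of Tubb3 are set beside them later. In bulk samples, fewer cells of a type and less RNA per cell cannot be told apart.

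The 10 genes differed widely in level. Tuba1a, an alpha-tubulin known for its role in the developing brain, was the highest, at a mean of 864 FPKM over the 8 libraries and rank 73 of the 35275 genes listed. Tuba1b, a broadly expressed alpha-tubulin, followed at 181 FPKM. Tubb5, a broadly expressed beta-tubulin, and Tubb6 followed at 139 and 120 FPKM. Tubb2a and Tubb4b stood at 66.2 and 56.6 FPKM, and Tubb2b and Tuba4a at 19.8 and 17.0 FPKM. Tuba1c and Tubb3 were far lower, at 0.877 and 0.259 FPKM, with ranks 9872 and 12323. The order was the same in all 8 libraries for 7 of the 9 neighbouring pairs. The exceptions were Tubb2a with Tubb4b and Tubb2b with Tuba4a, each in the stated order in 7 of 8 libraries and with overlapping ranges. Tubb5 was above Tubb6 in each library, by a ratio as low as 1.01.

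**Figure D1:**
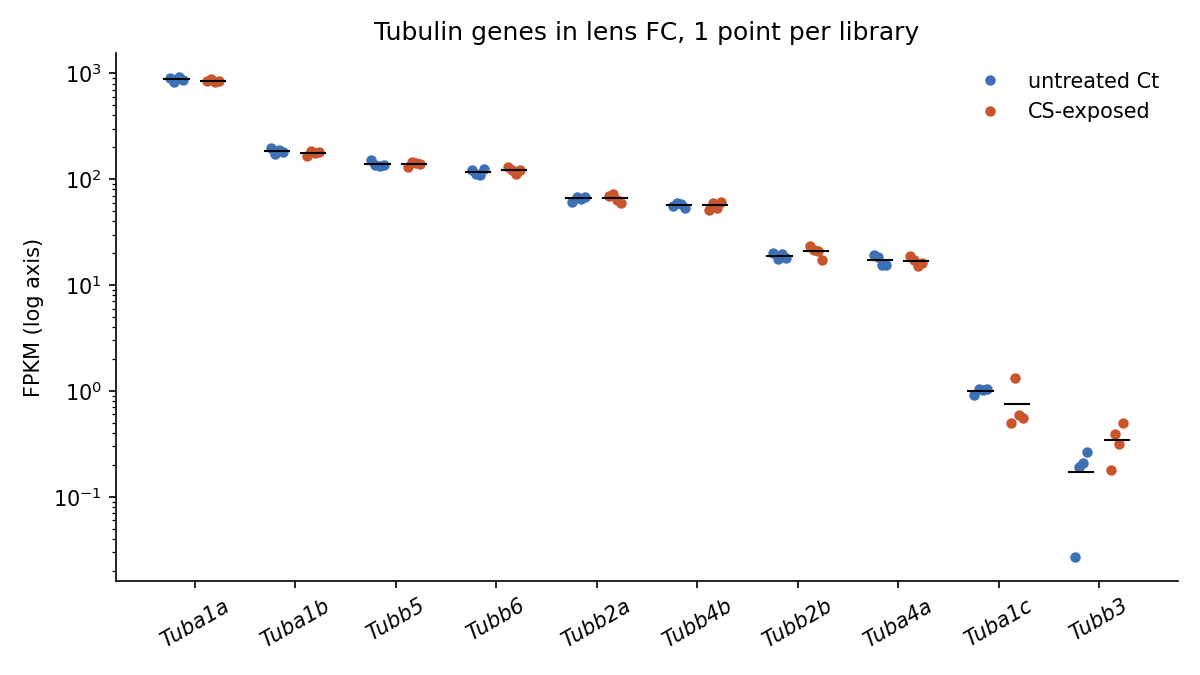
FPKM of the 10 tubulin genes on a log axis, in order of their mean, with 1 point per library (4 untreated Ct, 4 CS-exposed) and a bar at each group mean. The points of the 2 groups lie over each other for the 8 genes above 15 FPKM, and Tuba1c and Tubb3 near and below 1 FPKM are more spread.

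No tubulin gene passed a test for a difference between CS-exposed and untreated Ct mice with all 8 libraries. Where either group averaged 1 FPKM or more, a gene entered limma on the log2(FPKM + 0.1) scale, a linear model that shares the estimate of spread across genes, and p-values were adjusted by the Benjamini-Hochberg method over all 9794 genes that passed. Of the 10 tubulin genes 9 passed, Tubb3 being too low, and Tuba1c passed only through its mean of 1.01 FPKM in untreated Ct mice. Among the 9, 0 had an unadjusted p under 0.05 with limma, beside 4.83% of all genes tested, and 0 had an adjusted p under 0.05, beside 0.0102% of all genes. A second model, limma-voom on reads recovered from the FPKM steps, also called 0 at either threshold. The groups did not overlap for 0 of the 9, beside 3.08% of all genes tested. Adjusted p in limma was 0.956 or more for each. For the 8 genes above 15 FPKM, no 95% interval of the difference reached below 0.857-fold or above 1.26-fold of the untreated Ct level. Each gene had its own interval, from 0.910-fold to 1.03-fold for Tuba1a, from 0.921-fold to 1.07-fold for Tubb5 and from 0.963-fold to 1.26-fold for Tubb2b. The median absolute log2 difference of the 9 was 0.045, beside 0.084 over all genes tested, and their median standard error was 0.065, beside 0.123.

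**Figure D2:**
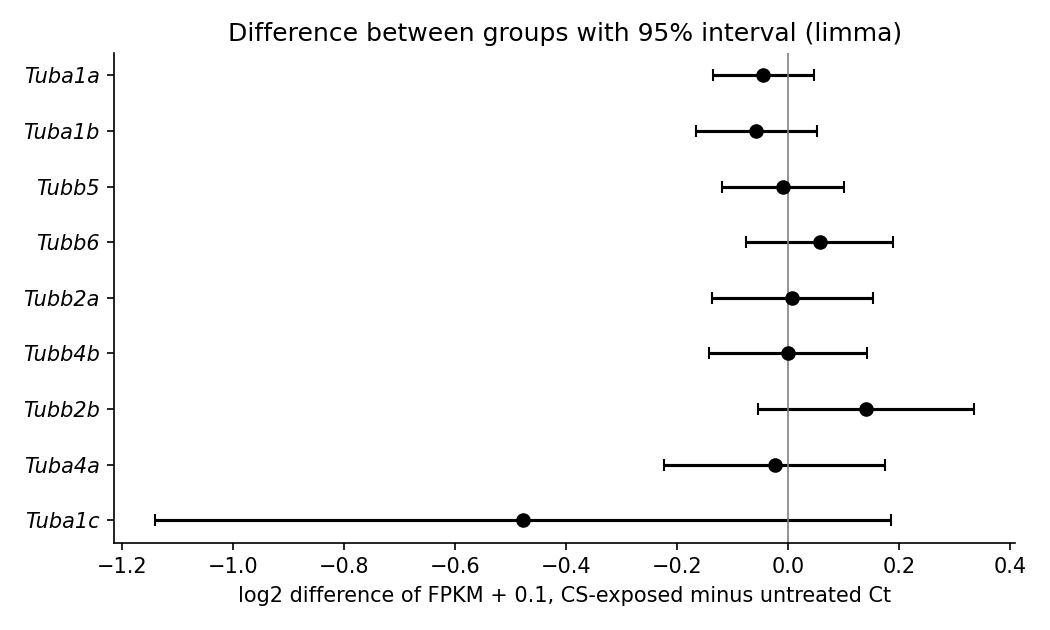
Log2 difference of FPKM + 0.1, CS-exposed minus untreated Ct, for the 9 tubulin genes tested, with 95% intervals from limma. All 9 intervals include 0; that of Tuba1c, from -1.14 to 0.19, is the widest, and that of Tuba1a, from -0.14 to 0.05, the narrowest.

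Among the alpha genes, Tuba1a was at 904, 824, 923 and 861 FPKM in untreated Ct replicates 1 to 4 and at 838, 887, 827 and 850 FPKM in CS-exposed replicates 1 to 4. Every CS-exposed library lay inside the range of the untreated Ct libraries. The mean was 878 ± 44.3 FPKM (SD, n = 4) against 850 ± 25.9 FPKM (SD, n = 4). The log2 difference was -0.04 (SE 0.04, limma adjusted p = 0.976). The gene lies on chromosome 15 (98949837 to 98953703, minus strand, 4 exons), beside Tuba1b (98931425 to 98934565).

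Tuba1b stood at 196, 174, 188 and 180 FPKM in untreated Ct and at 166, 185, 178 and 179 FPKM in CS-exposed mice. Only CS-exposed replicate 1 fell below the untreated Ct libraries, and the rest were among them. The log2 difference was -0.06 (SE 0.05, limma adjusted p = 0.967).

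Tuba4a, the alpha isotype whose gene lacks the final tyrosine codon, was at 19.1, 18.3, 15.6 and 15.5 FPKM in untreated Ct and at 18.9, 17.1, 15.2 and 16.1 FPKM in CS-exposed mice. Replicates 1 and 2 of both groups were higher than replicates 3 and 4 of both groups, while the group means, 17.1 and 16.8 FPKM, were close. The log2 difference between groups was -0.02 (SE 0.09, limma adjusted p = 0.995). Xist, the RNA that coats the inactive X chromosome, moved with the same replicate numbers: it was at most 0.0113 FPKM in replicates 1 and 2 and from 41.1 to 49.0 FPKM in replicates 3 and 4 of both groups. This split of Tuba4a and Xist was chosen after its values were seen and was not tested. The overlapping Stk16 was at 6.40, 7.50, 6.51 and 7.17 FPKM in untreated Ct and at 5.75, 6.47, 8.69 and 6.16 FPKM in CS-exposed mice. Reads of the overlap cannot be told apart without strand, and their part in the split of Tuba4a was not tested.

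Tuba1c, on the plus strand of chromosome 15 (99029891 to 99038110), was at 0.916, 1.05, 1.02 and 1.03 FPKM in untreated Ct and at 0.503, 1.34, 0.591 and 0.561 FPKM in CS-exposed mice. Of the CS-exposed libraries 3 lay below every untreated Ct library and replicate 2 lay above every one, so the groups overlapped (exact permutation p = 0.143, two-sided). These values rested on 36, 41, 47 and 37 reads in untreated Ct and on 21, 61, 24 and 24 reads in CS-exposed libraries. The log2 difference was -0.48 (SE 0.30, limma adjusted p = 0.956). With a pseudocount of 1 in place of 0.1 it was -0.22. Without CS-exposed replicate 2 it was -0.76, with an unadjusted limma p under 0.05 and an adjusted p = 0.921. That value is no support for a lower level, since Tuba1c entered the test only through the untreated Ct group, where it is higher, and the library left out is the 1 high CS-exposed library. Reads shared with Tuba1a and Tuba1b can be assigned to Tuba1c or lost from it, and its level is uncertain for that reason.

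Among the beta genes, Tubb5 was at 151, 136, 133 and 137 FPKM in untreated Ct and at 131, 144, 141 and 138 FPKM in CS-exposed mice. The groups overlapped, with untreated Ct replicate 1 the highest library and CS-exposed replicate 1 the lowest. The mean was 139 ± 7.72 FPKM (SD, n = 4) against 138 ± 5.65 FPKM (SD, n = 4), and the log2 difference -0.01 (SE 0.05, limma adjusted p = 0.995). Tubb5 shares no window of the read length with another gene.

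Tubb6, a divergent beta isotype on chromosome 18 (67390717 to 67402749, plus strand), was at 123, 111, 109 and 125 FPKM in untreated Ct and at 130, 123, 111 and 123 FPKM in CS-exposed mice. CS-exposed replicate 1 was the highest library and the others were among the untreated Ct values. The log2 difference was 0.06 (SE 0.06, limma adjusted p = 0.981).

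Tubb2a and Tubb2b are neighbours on chromosome 13 and encode nearly the same protein, and Tubb2b is known for its role in the migration of cortical neurons. Tubb2a was at 61.4, 68.4, 65.3 and 68.5 FPKM in untreated Ct and at 69.7, 72.6, 63.1 and 60.2 FPKM in CS-exposed mice. Its CS-exposed libraries lay on both sides of the untreated Ct range, 2 above it and 1 below, and the log2 difference was 0.01 (SE 0.07, limma adjusted p = 0.995). Tubb2b was at 19.96, 17.6, 19.4 and 18.1 FPKM in untreated Ct and at 23.4, 21.3, 21.04 and 17.4 FPKM in CS-exposed mice. For Tubb2b 3 CS-exposed libraries were above every untreated Ct library, while replicate 4 was below every one (exact permutation p = 0.200, two-sided). The log2 difference was 0.14 (SE 0.09, limma adjusted p = 0.956). Without CS-exposed replicate 1 it was 0.08, and without CS-exposed replicate 4 it was 0.22, with an unadjusted limma p under 0.05 and an adjusted p = 0.970. The value of 0.22 is no support for a higher level, since the library left out is the 1 CS-exposed library that was not above every untreated Ct library, which fixes that the remaining groups do not overlap.

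Tubb4b, a beta isotype abundant in the axonemes of cilia, was at 55.9, 59.4, 58.0 and 52.9 FPKM in untreated Ct and at 51.7, 59.8, 53.8 and 61.2 FPKM in CS-exposed mice. CS-exposed libraries lay on both sides of the untreated Ct range, and the group means of 56.5 and 56.6 FPKM were nearly equal, with a limma adjusted p = 0.9995. Its pseudogene, with which it shares sequence, was listed at 0.0355 to 0.357 FPKM.

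Tubb3, the beta isotype used as a marker of neurons, was at 0.0269, 0.190, 0.207 and 0.266 FPKM in untreated Ct and at 0.178, 0.394, 0.313 and 0.495 FPKM in CS-exposed mice. These values rested on 1, 7, 9 and 9 reads and on 7, 17, 12 and 20 reads. Of the CS-exposed libraries 3 were above every untreated Ct library, and replicate 1 was among them. Tubb3 did not reach the minimum, and with no minimum its log2 difference was 0.76 (SE 0.42, limma adjusted p = 0.906). The exact permutation test over the 70 assignments of 4 against 4 libraries, which cannot give less than 0.0286 (two-sided), gave p = 0.114 for Tubb3. The neuron list of 10 markers was near 0, from Rbfox3, a neuronal nuclear protein, at 0.0 to 0.0482 FPKM up to Snap25, a synaptic protein, at 0.0113 to 0.968 FPKM. Its summed level was 0.196 to 1.34 FPKM in untreated Ct and 0.361 to 2.65 FPKM in CS-exposed libraries. The summed rod markers were higher in CS-exposed than in untreated Ct libraries (27.8 to 90.9 against 7.08 to 24.8 FPKM), as was the mean of Tubb3. CS-exposed replicate 4, with the most Tubb3, had the lowest summed neuron and rod markers of its group, at 0.361 and 27.8 FPKM. It also had the highest summed red blood cell genes, at 22.8 FPKM. Whether other cells gave the reads of Tubb3 was not tested. Gm20388, a protein-coding gene annotated over Tubb3 on the same strand, was listed at 0 in every library.

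**Figure D3:**
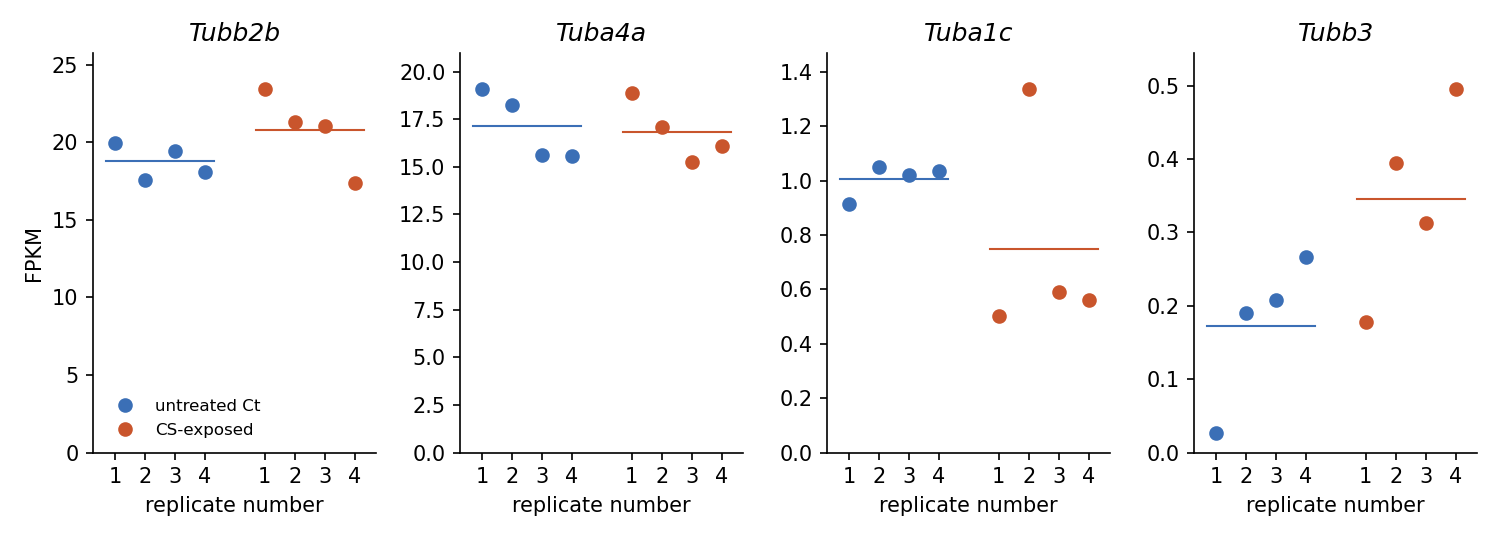
FPKM by replicate number of Tubb2b, Tuba4a, Tuba1c and Tubb3 on linear axes from 0, with untreated Ct on the left, CS-exposed on the right and a line at each group mean. Single libraries stand on the far side of the other group for Tubb2b (CS-exposed replicate 4, 17.4 FPKM) and Tuba1c (CS-exposed replicate 2, 1.34 FPKM), and Tuba4a is higher in replicates 1 and 2 of both groups.

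The spread between pools was small for the genes of high level. For the 8 genes above 15 FPKM the coefficient of variation within a group was 3.04 to 12%, and the highest of the 8 libraries was 1.12 to 1.345 times the lowest. The 629 to 35331 reads behind each of these values would by counting alone give 0.581 to 3.57%. For Tuba1c the variation was 6.07% in untreated Ct and 52.6% in CS-exposed mice, beside 17.3% from counting alone. For Tubb3 it was 59.4 and 38.9%, beside 39.7% from counting alone.

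Summed over the 10 genes, tubulin reached 1531, 1410, 1513 and 1459 FPKM in untreated Ct and 1429, 1512, 1411 and 1446 FPKM in CS-exposed libraries. The groups overlapped, with means of 1478 ± 54.6 FPKM (SD, n = 4) and 1450 ± 43.7 FPKM (SD, n = 4), and the sum was 0.181 to 0.197% of all FPKM in a library. The 4 alpha genes summed to 1017 to 1127 FPKM and the 6 beta genes to 386 to 421 FPKM. Alpha was thus 2.53 to 2.92 times beta in summed FPKM, although the proteins pair in equal numbers. This ratio carries the uncertainty of shared reads. Windows found in another gene made up 54.7% of Tuba1a and 57.9% of Tuba1b, against 0.0% of Tubb5 and Tubb6. The ratio was 2.73, 2.59, 2.92 and 2.63 in untreated Ct and 2.53, 2.59, 2.61 and 2.61 in CS-exposed libraries. Untreated Ct libraries reached higher, but the groups overlapped.

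Tuba1a alone gave 58.4 to 61.0% of the sum, and Tuba1a, Tuba1b, Tubb5 and Tubb6 together 88.3 to 89.7%. Within the alpha genes, Tuba1a held 80.7 to 81.9%, Tuba1b 16.2 to 17.5% and Tuba4a 1.39 to 1.84%. The beta genes were more evenly divided, with Tubb5 at 32.2 to 36.7%, Tubb6 at 28.4 to 32.0%, Tubb2a at 14.97 to 17.4%, Tubb4b at 12.8 to 15.3% and Tubb2b at 4.35 to 5.78%. No gene's share separated the groups. Shares of one sum are not independent of each other. The levels of the Tuba1 and Tubb2 genes, and so every share of a sum that holds them, carry the uncertainty of their shared reads.

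**Figure D4:**
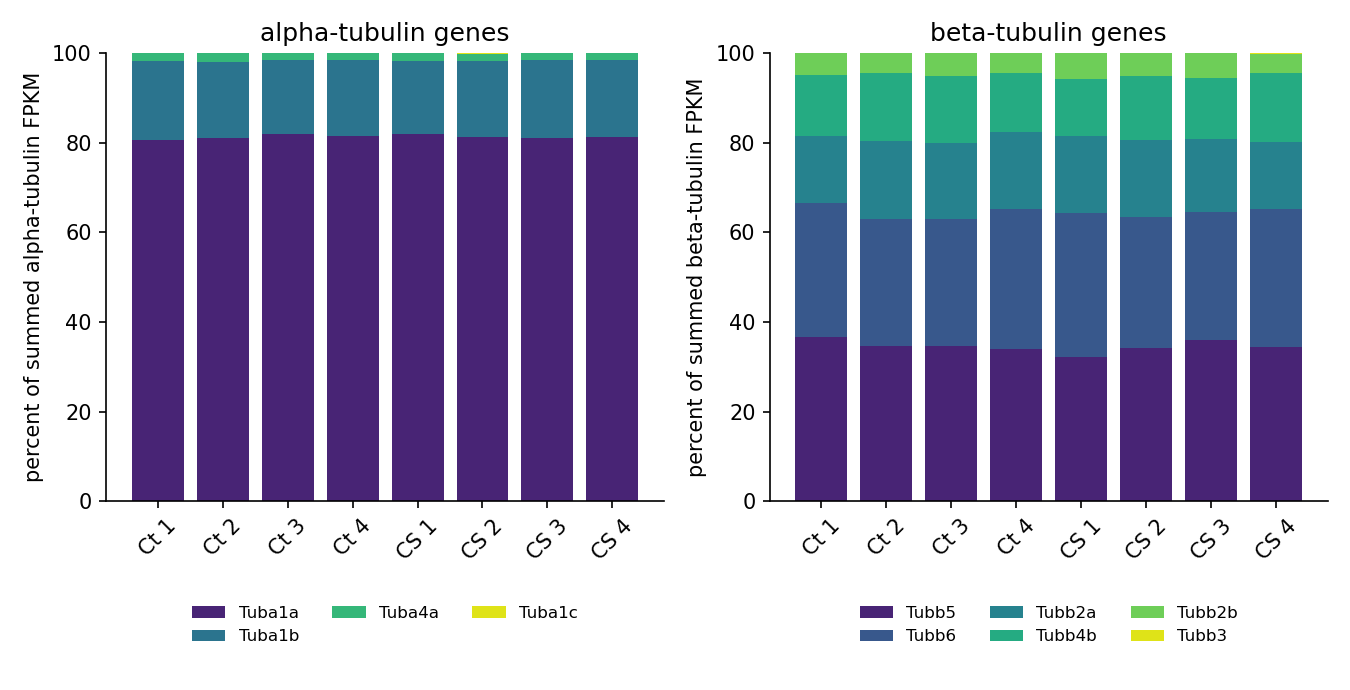
Share of each gene in the summed FPKM of the alpha genes (left) and of the beta genes (right), in percent, as stacked bars for the 4 untreated Ct (Ct) and 4 CS-exposed (CS) libraries. Tuba1a fills 80.7 to 81.9% of the alpha bars, while Tubb5 and Tubb6 each hold 28.4 to 36.7% of the beta bars, with little difference between libraries.

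The tubulin genes were weakly related to each other from library to library. After the group means were taken out, Pearson's r between log2 values of the 36 pairs of tested genes ranged from -0.62 to 0.80 with a median of 0.16, and 23 pairs were above 0. The highest were Tuba1b with Tubb5 (0.80) and Tuba1a with Tuba1b (0.78), the latter a pair with shared reads, and the lowest was Tubb2b with Tubb4b (-0.62). All genes of a library share its depth and scaling, and these are descriptions over 8 libraries. Averaged over the 9 genes, the log2 level of a library was 5.63 to 5.84, with the highest in CS-exposed replicate 2, where Tuba1c was high. Among the genes most like this mean, of all 9794 tested, were Rhoq (r = 0.957), Iqgap1 (r = 0.956), Lmnb1 (r = 0.955) and Zfp668 (r = 0.937), which had mean levels of 1.15 to 2.74 FPKM. For these values group means were not taken out. The genes were picked for a high r among all tested over only 8 libraries, so a high r is no support for a link. The mean of the 9 genes leaned on Tuba1c, with which it had r = 0.872, and without Tuba1c the libraries spanned 6.40 to 6.51 on the log2 scale. With the mean of the other 8 genes, r was 0.726 for Rhoq, 0.663 for Iqgap1, 0.807 for Lmnb1 and 0.912 for Zfp668.

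The remaining tubulins of the mouse were low or, for gamma-tubulin, moderate. Tubg1 and Tubg2, the gamma-tubulins that nucleate microtubules, were at 12.9 to 16.1 and 7.65 to 10.9 FPKM. Tubb4a, a beta isotype of brain, was at 0.394 to 1.73 FPKM. Tuba3a reached at most 0.660, Tuba8 0.273, Tubb1, the beta isotype of platelets, 0.135, and delta- and epsilon-tubulin (Tubd1 and Tube1) 0.916 and 0.976 FPKM, and Tuba3b and Tubal3 were listed at 0 in every library. Of these 10 genes 3 were tested, and 0 had p under 0.05 in limma.

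The genes that fold, nucleate, bind, modify or travel on microtubules were described by lists that cover 148 genes, of which 143 were listed under their symbol and 111 tested. Of the 111, 1 had an unadjusted p under 0.05 in limma, beside 4.83% of all genes tested, and 0 had an adjusted p under 0.05. Their log2 differences had a median of 0.02, with 63 above 0 and 48 below, beside a median of 0.00 over all genes tested. The median of the 9 tubulin genes was -0.01, with 3 above 0 and 6 below. The groups did not overlap for 2 of the 111, beside 3.08% of all genes tested.

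Tubulin folding begins on prefoldin and the chaperonin CCT, and all 14 of their genes were tested. Pfdn5, a prefoldin subunit, was the gene with p under 0.05, at 373, 357, 365 and 363 FPKM in untreated Ct and 391, 366, 391 and 417 FPKM in CS-exposed mice. Its lowest CS-exposed library lay within the untreated Ct range, and the log2 difference was 0.10 (SE 0.04, limma adjusted p = 0.956). The unadjusted call was lost without untreated Ct replicate 2, 3 or 4 and without CS-exposed replicate 1, 3 or 4 in turn. It was also lost with median centring and without a trend in eBayes. In these fits the log2 difference of Pfdn5 was 0.069 without CS-exposed replicate 4 and 0.09 to 0.102 otherwise. Cct5, a chaperonin subunit, averaged 241 FPKM in untreated Ct and 254 FPKM in CS-exposed mice, with a log2 difference of 0.08 (limma adjusted p = 0.956). The median log2 difference of the list was 0.04, with 10 of 14 above 0.

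The 7 genes of the folding cofactor list had a median log2 difference of -0.02 and 0 with p under 0.05 in limma. Their highest genes were Tbca, which holds beta-tubulin, at 157 and 153 FPKM, and Tbcb, which holds alpha-tubulin, at 128 and 129 FPKM in untreated Ct and CS-exposed mice. Ttc5, which recognizes nascent tubulin in the feedback on tubulin RNA, was at 6.62 FPKM in untreated Ct and 7.52 FPKM in CS-exposed mice, with a log2 difference of 0.19 (limma adjusted p = 0.956). Cnot11, which links that recognition to the deadenylase, was at 4.15 and 4.03 FPKM. None of the 3 autoregulation genes had p under 0.05 in limma.

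Of the 11 tested genes of the gamma-tubulin ring complex, 0 had p under 0.05 in limma, and the highest were Tubgcp4 (14.7 and 16.0 FPKM in untreated Ct and CS-exposed mice) and Tubg1 (13.6 and 14.3 FPKM). Of the 16 tested microtubule-binding proteins, 0 had p under 0.05, and the highest were Map4, a broadly expressed microtubule stabilizer (50.7 and 49.4 FPKM), and Map7 (17.97 and 17.4 FPKM). Among 8 tested depolymerizing and severing proteins, Stmn1, which sequesters tubulin dimers, was at 32.8 FPKM in both groups and Katnal2, of the katanin family, at 12.5 FPKM in both.

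Spast, the severing enzyme spastin, was singled out after its values were seen because its groups did not overlap. It was at 6.78, 7.03, 6.10 and 6.59 FPKM in untreated Ct and 7.54, 7.07, 8.43 and 7.24 FPKM in CS-exposed mice. The log2 difference was 0.19 (SE 0.09, limma adjusted p = 0.956). The unadjusted limma p of Spast was just above 0.05 with all libraries and came under it in 6 of 18 alternatives. The other tested gene of these lists with no overlap was Kif1c, a kinesin, with 20.5, 20.5, 22.0 and 20.3 FPKM in untreated Ct and 19.6, 19.8, 19.9 and 19.8 FPKM in CS-exposed mice (limma adjusted p = 0.956). Among the list genes too low to be tested, the groups did not overlap for Dclk1, a microtubule-associated kinase. It was at 0.186 to 0.205 FPKM in untreated Ct and 0.242 to 0.397 FPKM in CS-exposed mice, well below the minimum. Over all genes tested 3.08% did not overlap, and no such share is given for genes below the minimum. The difference of Dclk1 was not tested.

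The enzymes that act on the tails and lattice of tubulin gave 13 tested genes and 0 with p under 0.05 in limma. Sirt2, a deacetylase of alpha-tubulin, was the highest at 87.6 ± 6.79 FPKM in untreated Ct and 94.9 ± 5.43 FPKM (SD) in CS-exposed mice, with a log2 difference of 0.12 (limma adjusted p = 0.956). Atat1, the acetyltransferase of the same residue, was at 8.21 ± 0.772 and 9.40 ± 1.85 FPKM (SD). Of 16 tested kinesin genes 0 had p under 0.05, and the highest were Klc1, a light chain of kinesin (59.98 and 62.9 FPKM), and Kif1a (59.4 and 55.9 FPKM). Of 22 tested genes of dynein and dynactin 0 had p under 0.05, and the highest were the light chains Dynll2 (321 and 311 FPKM) and Dynlrb1 (96.9 and 99.7 FPKM).

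**Figure D5:**
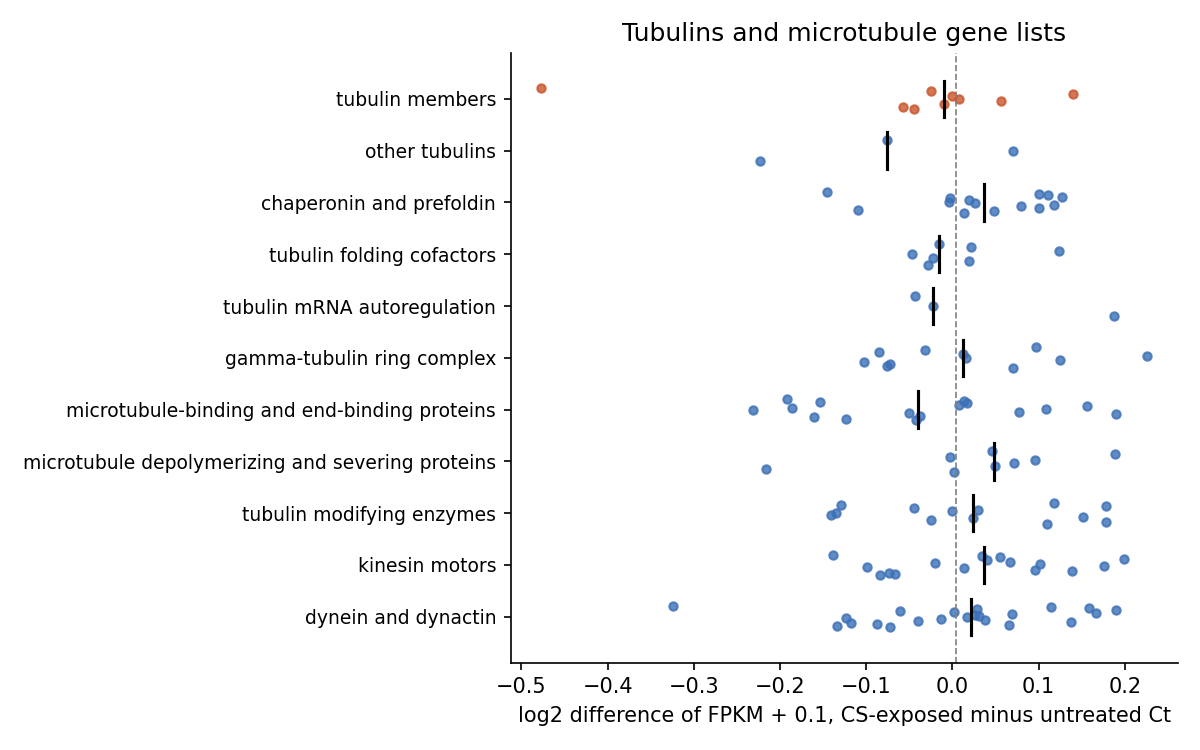
Log2 difference of FPKM + 0.1, CS-exposed minus untreated Ct, for each tested gene (points), grouped as the tubulin genes and 10 microtubule gene lists, with the median of each as a black line and the median of all 9794 genes tested as a dashed line. List medians lie between -0.08 and 0.05, and the point farthest from 0 is Tuba1c at -0.48.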

How the data were processed

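RNA of lens FC was measured in 8 libraries, 4 per group, and groups and replicate numbers were taken from the labels. Libraries were made with a kit that does not mark strand. The authors aligned reads with STAR 2.5 to GRCm38 and counted them with HTSeq 0.6.1. The deposited values are FPKM per library; deposited group means, fold changes and p-values of the authors' own comparison were not used. The annotation behind the lengths is not given in the sources used here.

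Genes averaging 1 FPKM or more in untreated Ct or CS-exposed libraries were tested on the log2(FPKM + 0.1) scale, which understates the change of low genes, with limma 3.58.1 in R 4.3.3 (lmFit, eBayes with trend, group alone, two-sided, Benjamini-Hochberg over 9794 genes). The fit was tested on simulated data. Exact permutation tests used difference of mean log2 values. Whole reads, within a tolerance of 0.02, were recovered for 99.7% of tested genes. Fragment totals rest on GENCODE M21 lengths, with which 665 of 9077 genes gave the same depth. Counting errors cover counting only. Tables and figures were made with pandas 2.3.3, numpy 2.4.6 and matplotlib 3.10.9 in Python 3.11.15.

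The tubulin genes and the microtubule and marker lists were chosen with earlier results of these data known. Named are all 10 tubulins, all other listed tubulins, per list the 2 highest tested genes and those with p under 0.05, per marker list the highest and lowest gene, and the 5 genes most like the tubulin mean. A few genes and sequences that this rule takes in are not reported here. Alternatives were other pseudocounts, minima, scalings and eBayes settings, a replicate block and leaving out each library; limma-voom on recovered reads was added after seeing the data.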

Additional observations from a re-analysis of the deposited data

Results flagged for a closer look

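In groups of 4, a library was marked where its gap to the nearest other library, as a share of the group's range, exceeded Dixon's critical value. Of 38 groups examined 3 were marked, where chance marks about 1 in 20, or 1.9. Tuba1c in CS-exposed replicate 2 was at 1.34 FPKM, while the other CS-exposed libraries were at 0.503 to 0.591 FPKM. The other tubulin genes and the tubulin sum had no library so marked. The summed level of 6 markers of the retinal pigment epithelium was 25.6 FPKM in CS-exposed replicate 3, beside 2.70 to 5.88 FPKM in the other CS-exposed libraries and 0.922 to 1.85 FPKM in untreated Ct. Ttr, a thyroxine carrier of this epithelium, was the highest of the list (0.208 to 13.1 FPKM), and Best1, a channel of it, was listed at 0 in every library. The summed level of 5 red blood cell genes was 22.8 FPKM in CS-exposed replicate 4, beside 0.4999 to 4.23 FPKM in the others of its group, with Hbb-bs, a globin, the highest (0.0 to 11.1 FPKM) and Hba-a2 the lowest (0.0 to 0.417 FPKM). Endothelium markers were low throughout, from Kdr (0.0 to 0.0390 FPKM) to Pecam1 (0.0442 to 0.353 FPKM). The part of these cells in the tubulin values was not tested; Tuba1c in CS-exposed replicates 3 and 4 was at 0.591 and 0.561 FPKM, and at 0.503 FPKM in replicate 1.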

How the results depend on the processing

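Of 159 log2 differences of the 9 tested tubulin genes under 18 alternatives, 144 kept both direction and side of an unadjusted p of 0.05, and 13, all near 0, changed sign. Those were Tubb2a under quantile normalization (-0.0040) and, over the libraries left out, Tuba4a (-0.081 to 0.029), Tubb2a (-0.037 to 0.053), Tubb4b (-0.039 to 0.042) and Tubb5 (-0.0295 to 0.029). The other 2 passed 0.05: Tuba1c without CS-exposed replicate 2, its high CS-exposed library (-0.76), and Tubb2b without CS-exposed replicate 4 (0.22). In the other direction, Tuba1c was -0.22 with a pseudocount of 1 and Tubb2b 0.08 without CS-exposed replicate 1. Over all alternatives, Tuba1a ranged from -0.075 to -0.02, Tuba1b from -0.102 to -0.027 and Tubb6 from 0.024 to 0.099. Over the libraries left out, the count of tubulin genes under 0.05 thus ranged from 0 to 1, as did the count whose groups did not overlap, beside 4.28 to 5.35% of all genes under 0.05 and 5.52 to 6.23% without overlap in the same fits. No tubulin gene had an adjusted p under 0.05 in any of the limma fits. Tuba1c fell below the minimum of 5 FPKM, and below 1 FPKM without untreated Ct replicate 2 or 4.

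Counts of list genes kept to the 111 tested in the main fit, so list genes admitted only with no minimum were left out. The count with p under 0.05, 1 of 111, was 4 with no minimum, 2 of 73 with a minimum of 5 FPKM and 3 with quantile normalization. It was 2 without a trend, 2 with robust eBayes and 6 with limma-voom. Over the libraries left out, where 110 or 111 were tested, it was 0 (without untreated Ct replicate 3) to 9 (without untreated Ct replicate 2). Without untreated Ct replicate 2, 5.08% of all genes were under 0.05. Over all genes, 473 became 862 with no minimum and 226 with a minimum of 5 FPKM, which test more and fewer genes (4.10 and 4.69% of those tested). The share was 4.98% with quantile normalization, 5.08% without a trend, 4.78% with robust eBayes and 4.93% with limma-voom. For the other changes the cause was not tested.

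Same-numbered libraries come from different mice, and their deviations correlated at 0.012 to 0.161, not above 0.1 for every number, and 6 of 8 libraries correlated best with their own number. Xist also followed the replicate number in both groups. It was at most 0.0113 FPKM in replicates 1 and 2 and 41.1 to 49.0 FPKM in replicates 3 and 4. With the replicate number as a block, 0 tubulin genes, 1 list gene and 522 genes in all had p under 0.05, and Tubb2b had a log2 difference of 0.14 (limma adjusted p = 0.918). Depth limits Tuba1c and Tubb3, with 21 to 61 and 1 to 20 reads per library.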
